A study of Danio rerio with 6 samples.

Results

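The TGF-beta genes described here are the ligands *tgfb1a*, *tgfb2* and *tgfb3*, the type I receptors *tgfbr1a* and *tgfbr1b*, the type II receptors *tgfbr2a* and *tgfbr2b*, the inhibitory Smad gene *smad7* and the TGF-beta-induced matrix gene *tgfbi*. They were found by gene symbol, and all 9 were present among the 32520 genes of the table. RNA-seq was performed on whole larvae at 4 dpf, with 60 larvae to a pool, in 3 *mgt* pools and in 3 WT pools of the AB strain. The *mgt* (maggot) larvae are homozygous for a chemically induced missense allele of *plod3*, and their labels call the genotype a *plod3* KO. *plod3* encodes a lysyl hydroxylase and glycosyltransferase that modifies collagens in the secretory pathway. The labels name no transgene and no drug. The labels and a figure legend in the paper call the pools biological replicates, while another legend calls them technical, so p-values measure the spread between these pools.

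TGF-beta ligands are secreted as latent dimers that latent TGF-beta binding proteins tether to the matrix, and integrins, thrombospondins and proteases release the active form. The active ligand binds a type II receptor, which recruits and phosphorylates a type I receptor. Smad2 and Smad3 then join Smad4 and enter the nucleus, where they switch on matrix genes and also their own inhibitor, Smad7. In skeletal and connective tissue the pathway is known for its control of cartilage differentiation, tendon formation and collagen production.

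Expression is given as RPKM, reads scaled to the length of the gene and to the reads of the library. Library totals were 38300000 to 42600000 reads in *mgt* and 43400000 to 50300000 reads in WT. Fold changes are *mgt* over WT on the log2(RPKM + 0.5) scale, and a gene was called where limma gave an adjusted p below 0.05 and a log2 fold change of 0.322 or more in size. The mutated gene *plod3* had 23.92, 24.28 and 24.37 RPKM in *mgt*, against 16.76, 15.34 and 14.21 RPKM in WT, a log2 fold change of 0.64 (limma, Benjamini-Hochberg adjusted p = 0.00436) that was 0.19 and no longer called with a trend of expression with gene span removed from each library (limma adjusted p = 0.24). RPKM does not read the base change of the allele. Every *mgt* pool carries another batch label than every WT pool, so batch and genotype cannot be told apart. WT replicate 1 stood apart from the other WT replicates, and results without it are given for some genes and lists. The median log2 fold change of all 20435 genes tested was 0.29, and 67.0% of called genes were higher in *mgt*; with median-of-ratios factors this median was 0.02 and the share was 48.7%. With the gene span trend removed the share was 42.1%, with quantile normalization 46.7%, and with every library scaled to the same sum 82.2%. In all lists of tissue markers examined, no marker was at 0 in any library. In *mgt* against WT, summed RPKM was 1068 to 1133 against 406.2 to 502.7 for cartilage (4 of 5 markers higher), 45.12 to 48.92 against 23.3 to 26.9 for endothelium (6 of 6 higher), 27.25 to 30.93 against 16.62 to 21.31 for macrophages and neutrophils (4 of 7 higher) and 197.2 to 210.1 against 145.6 to 180.9 for fibroblasts and tendon (3 of 5 higher, 1 lower). With median-of-ratios factors and with the gene span trend removed, the called higher markers numbered 4 and 1 of 6 for endothelium, 1 and 1 of 7 for macrophages and neutrophils, 1 and 0 of 5 for fibroblasts and tendon and 4 and 4 of 5 for cartilage. Neuron markers summed to 447.6 to 465.8 in *mgt* and to 380.3, 133.8 and 188.0 in WT replicates 1, 2 and 3 (3 of 5 higher). Of these neuron markers, 3 were called higher with median-of-ratios factors, 2 with the gene span trend removed and 5 without WT replicate 1. Among all genes tested, 31.8% were called higher and 15.6% lower as deposited. The share called higher was 23.4% with median-of-ratios factors, 18.6% with the gene span trend removed and 52.0% without WT replicate 1. Summed RPKM was 3253 to 3767 in *mgt* against 10580 to 11400 in WT for epidermis (4 of 5 lower), 337.5 to 367.7 against 2739 to 4080 for exocrine pancreas (5 of 5 lower), 3002 to 3187 against 4500 to 7663 for liver (3 of 5 lower) and 15330 to 16080 against 14120 to 24450 for skeletal muscle (1 of 5 lower). In WT replicates 1, 2 and 3, liver markers summed to 4500, 7083 and 7663 and skeletal muscle markers to 14120, 21020 and 24450. Without WT replicate 1, 4 of 5 liver markers and 4 of 5 skeletal muscle markers were called lower, beside 18.2% of all genes. The remaining muscle marker, *ckma*, had 3708.27, 3743.37 and 3578.81 RPKM in *mgt*, against 2088.15, 3043.84 and 3351.13 RPKM in WT. Its *mgt* libraries were all above its WT libraries, but it was not called. The remaining liver marker, *cp*, averaged 86.3 RPKM in *mgt* and 65.9 RPKM in WT, with overlap, and was not called. In RNA from whole larvae, a change in the number of cells of a type cannot be told apart from a change in RNA per cell.

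Of the 9 TGF-beta genes, 7 were higher in *mgt* than in WT, and none was lower. The ligands *tgfb1a*, *tgfb2* and *tgfb3*, the receptors *tgfbr1b* and *tgfbr2a*, and *smad7* and *tgfbi* made up the 7, while *tgfbr1a* and *tgfbr2b* did not pass the test. All 9 passed the filter on low values. Among all genes tested, 47.4% were called in either direction, 31.8% were called higher and 15.6% were called lower. The same 7 genes had no overlap between genotypes, the *mgt* libraries being the higher ones, and 41.7% of all genes tested shared this pattern. The median log2 fold change of the 9 genes was 0.81, beside 0.29 over all genes. Without WT replicate 1, 8 of the 9 were called higher, *tgfbr1a* being the addition, while the share of all genes called higher was 52.0%. With median-of-ratios factors 6 were called higher, beside 23.4% of all genes called higher and 24.6% lower. With the gene span trend removed 5 were called higher and 2 lower, beside 18.6% and 25.5% of all genes.

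**Figure D1:**
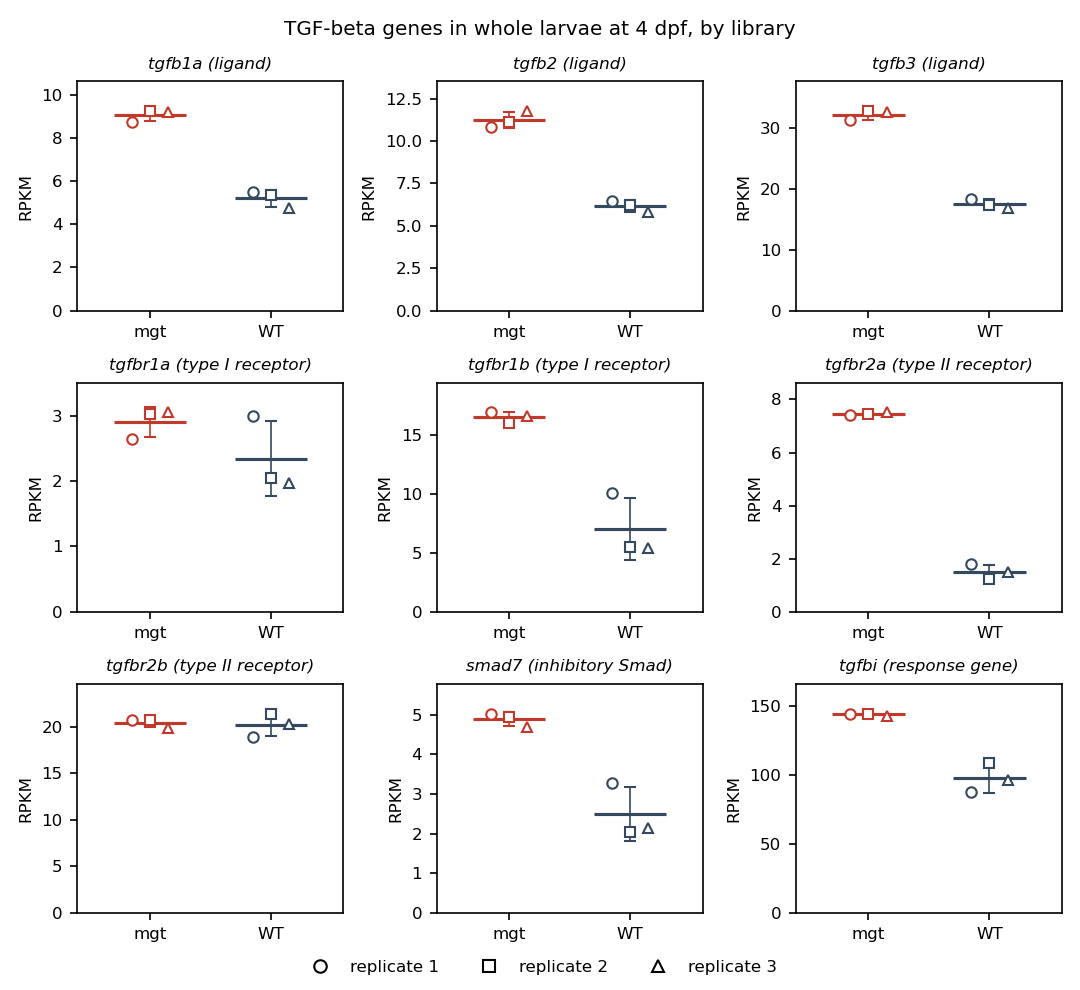
RPKM of the 9 TGF-beta genes in each library, with *mgt* on the left and WT on the right of every panel; points are libraries, horizontal lines are group means and error bars are SD (n = 3 pools). The 3 *mgt* points lie above all WT points in every panel but those of *tgfbr1a* and *tgfbr2b*, and WT replicate 1 (circle) stands farthest from the other WT replicates for *tgfbr1a*, *tgfbr1b* and *smad7*.

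The 3 ligand genes were higher in *mgt*, with log2 fold changes of 0.75 to 0.86. *tgfb3*, a ligand known in mammals for its part in palate fusion, was the most abundant (ENSDARG00000019367, chromosome 17, 52059020 to 52091999 of GRCz11), with 31.32, 32.78 and 32.6 RPKM in *mgt*, against 18.38, 17.33 and 16.93 RPKM in WT. The lowest *mgt* library lay well above the highest WT library, and libraries of a genotype stayed close together. The means were 32.2 ± 0.80 RPKM in *mgt* and 17.6 ± 0.75 RPKM in WT (SD, n = 3 each), a log2 fold change of 0.86 (standard error 0.085, limma with Benjamini-Hochberg adjusted p = 0.001003). *tgfb2*, a ligand that mouse embryos need for heart and skeletal development (ENSDARG00000027087, chromosome 16, 2745006 to 2807527), had 10.82, 11.11 and 11.75 RPKM in *mgt*, against 6.49, 6.22 and 5.81 RPKM in WT. These libraries did not overlap between genotypes either, and the log2 fold change was 0.81 (standard error 0.102, limma adjusted p = 0.00228). The call of *tgfb2* was lost with the gene span trend removed (0.20, limma adjusted p = 0.32), whereas those of *tgfb3* (0.43) and *tgfb1a* (0.39) were not. *tgfb1a*, a zebrafish counterpart of the mammalian ligand TGFB1, which restrains immune cells and drives fibrosis (ENSDARG00000041502, chromosome 15, 2776506 to 2803313), had 8.75, 9.24 and 9.22 RPKM in *mgt*, against 5.51, 5.36 and 4.75 RPKM in WT. Again each *mgt* library was above each WT library, with a log2 fold change of 0.75 (standard error 0.108, limma adjusted p = 0.00373). The summed cartilage markers, 1068 to 1133 RPKM in *mgt* and 406.2 to 502.7 RPKM in WT, moved in the same direction as the ligands, and their part in these values was not tested.

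Added together, the 3 ligand genes reached 52.5 ± 1.44 RPKM in *mgt* and 28.9 ± 1.45 RPKM in WT (SD, n = 3 each). As deposited, the ligand pool was thus 1.82 times as large in *mgt*, and its makeup was similar in both genotypes. The size of a pool, unlike its makeup, depends on the scaling of the libraries. The median-of-ratios factors, by which RPKM is divided, were 1.13 to 1.132 in *mgt* and 0.8063 to 1.097 in WT. They would lower this ratio and those of the receptor pools below, which are also given as deposited. *tgfb3* made up 61.4% ± 0.45 of it in *mgt* and 60.7% ± 0.83 in WT, *tgfb2* 21.4% ± 0.52 in *mgt* and 21.3% ± 0.19 in WT, and *tgfb1a* 17.3% ± 0.11 in *mgt* and 18.0% ± 0.64 in WT. Ratios within a library do not depend on a single scaling factor per library, except through the 0.5 RPKM added to both genes here. The log2 ratio of *tgfb2* to *tgfb3* averaged -1.48 in *mgt* and -1.44 in WT (difference -0.05, two-sided exact permutation test, p = 0.20, adjusted p = 0.20 over 4 ratios). That of *tgfb1a* to *tgfb3* averaged -1.77 in *mgt* and -1.66 in WT (difference -0.11, exact permutation test, p = 0.10, adjusted p = 0.13). With 3 pools against 3, this test can give no p below 0.10, and these p-values do not show that the ratios were alike.

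Zebrafish keep a pair of genes for each receptor type, and in each pair a single copy was called higher in *mgt*. The type II receptor gene *tgfbr2a* (ENSDARG00000059363, chromosome 19, 917852 to 932264), whose product is the kinase that binds ligand, had 7.42, 7.47 and 7.51 RPKM in *mgt*, against 1.78, 1.23 and 1.49 RPKM in WT. All *mgt* libraries lay far above every WT library and almost coincided with each other. With 7.47 ± 0.045 RPKM in *mgt* and 1.5 ± 0.28 RPKM in WT (SD, n = 3 each), the ratio of means was 4.98. The log2 fold change of *tgfbr2a* was 2.00 (standard error 0.14, 95% interval 1.67 to 2.34, limma with Benjamini-Hochberg adjusted p = 0.000302), and 1.08% of all genes tested had a higher one. Its partner *tgfbr2b* (ENSDARG00000034541, chromosome 16, 39505163 to 39605661), which encodes a receptor of the same type, had 20.74, 20.75 and 19.9 RPKM in *mgt*, against 18.96, 21.44 and 20.36 RPKM in WT. The libraries of both genotypes overlapped. The log2 fold change of *tgfbr2b* was 0.02 (95% interval -0.20 to 0.23, limma adjusted p = 0.89), and its sign turned with median-of-ratios factors (-0.29), with quantile normalization (-0.13), with the gene span trend removed (-0.72, limma adjusted p = 0.0385) and without WT replicate 1 (-0.03). An annotated gene, CR855318.1, overlaps *tgfbr2b* and had at most 0.02 RPKM in any library.

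The type II receptor pool differed more in its makeup than in its size. The RPKM of *tgfbr2a* and *tgfbr2b* together was 27.9 ± 0.45 in *mgt* and 21.8 ± 0.97 in WT (SD, n = 3 each). The ratio was 1.28 as deposited, and median-of-ratios factors would lower it. *tgfbr2a* made up 26.4%, 26.5% and 27.4% of it in the *mgt* libraries, against 8.58%, 5.43% and 6.82% in WT. The log2 ratio of *tgfbr2a* to *tgfbr2b*, with 0.5 RPKM added to both, was -1.40 ± 0.04 in *mgt* and -3.38 ± 0.29 in WT (SD, n = 3 each). The difference was 1.99, and 2.32 without the added 0.5. The genotypes did not overlap, which gives the smallest p that the exact permutation test allows (p = 0.10, adjusted p = 0.13 over 4 ratios).

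**Figure D2:**
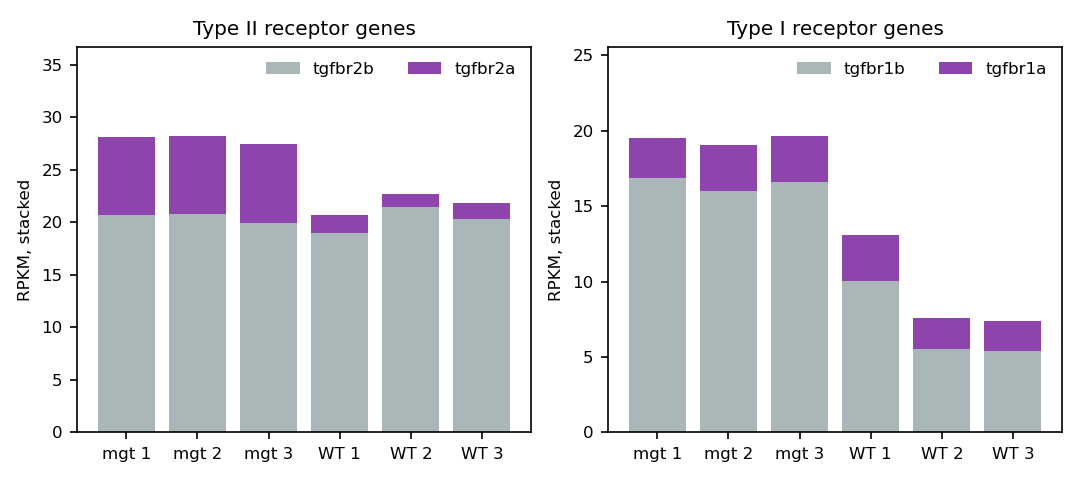
Stacked RPKM of the type II receptor genes (left) and the type I receptor genes (right) in each library, the *mgt* libraries first. The *tgfbr2a* segment is 7.42 to 7.51 RPKM tall in *mgt* and 1.23 to 1.78 RPKM in WT on a *tgfbr2b* segment of like height, whereas on the right the *tgfbr1b* segment differs.

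Of the type I receptors, the kinases that pass the signal to Smads, *tgfbr1b* was higher in *mgt* and *tgfbr1a* was not called. *tgfbr1b* (ENSDARG00000042259, chromosome 24, 119680 to 150447) had 16.89, 16.02 and 16.6 RPKM in *mgt*, against 10.06, 5.51 and 5.41 RPKM in WT. WT replicate 1 lay between the *mgt* libraries and the other WT libraries, with no overlap between genotypes. The means were 16.5 ± 0.44 RPKM in *mgt* and 6.99 ± 2.66 RPKM in WT (SD, n = 3 each), and the log2 fold change was 1.24 (standard error 0.233, limma adjusted p = 0.00842) and 1.51 without WT replicate 1. With median-of-ratios factors it was 0.94, and with the gene span trend removed 0.83, called higher under either setting. *tgfbr1b* lies within the span of *reck*, a gene for an inhibitor of matrix proteases (chromosome 24, 80653 to 253034), which had 19.84, 19.69 and 20.94 RPKM in *mgt*, against 13.22, 14.03 and 13.48 RPKM in WT. Whether the counting used strand is not given in the sources used here, so reads shared by these overlapping genes remain uncertain. In *reck*, WT replicate 1 was not above the other WT replicates, unlike in *tgfbr1b*. *tgfbr1a* (ENSDARG00000017494, chromosome 2, 23856045 to 23931536) had 2.64, 3.02 and 3.05 RPKM in *mgt*, against 3.0, 2.05 and 1.97 RPKM in WT. Here WT replicate 1 lay within the *mgt* range, so the genotypes overlapped. The log2 fold change of *tgfbr1a* was 0.28 (95% interval -0.14 to 0.69, limma adjusted p = 0.21). It was 0.44 without WT replicate 1, which passed the test (limma adjusted p = 0.00437), and its sign turned with quantile normalization (-0.11) and with the gene span trend removed (-0.39, limma adjusted p = 0.0288).

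Together the type I receptor genes had 19.53, 19.04 and 19.65 RPKM in *mgt*, against 13.06, 7.56 and 7.38 RPKM in WT. WT replicate 1 again lay between the *mgt* libraries and the other WT libraries. The ratio of means was 2.08 as deposited, beside 1.28 for the type II pool. *tgfbr1a* made up 14.97% ± 1.27 of the sum in *mgt* and 25.6% ± 2.28 in WT (SD, n = 3 each). The log2 ratio of *tgfbr1a* to *tgfbr1b* was -2.32 ± 0.13 in *mgt* and -1.36 ± 0.20 in WT, a difference of -0.96 with no overlap (exact permutation test, p = 0.10, adjusted p = 0.13 over 4 ratios).

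*smad7*, whose product blocks type I receptors and is itself switched on by TGF-beta, was also higher in *mgt*. The gene (ENSDARG00000016858, chromosome 21, 3419459 to 3452683) had 5.03, 4.94 and 4.7 RPKM in *mgt*, against 3.27, 2.05 and 2.13 RPKM in WT. All *mgt* libraries were above WT replicate 1, which was the highest WT library. The log2 fold change was 0.88 (standard error 0.179, limma adjusted p = 0.0109). With median-of-ratios factors it was 0.605, and with the gene span trend removed 0.445, called higher under either setting. The call of *smad7* was lost without *mgt* replicate 1 (log2 fold change 0.86, limma adjusted p = 0.0514) or *mgt* replicate 2 (0.87, limma adjusted p = 0.0515). *tgfbi*, which encodes a secreted matrix protein that binds collagens and integrins (ENSDARG00000071586, chromosome 14, 26511041 to 26536504), was the most abundant of the 9 genes, with 144.64, 144.85 and 143.26 RPKM in *mgt*, against 87.56, 109.2 and 96.84 RPKM in WT. The *mgt* libraries lay close together and above all WT libraries, of which replicate 1 was the lowest. The log2 fold change of *tgfbi* was 0.56 (standard error 0.103, limma adjusted p = 0.00777). It was no longer called with median-of-ratios factors (0.25, limma adjusted p = 0.32) or with the gene span trend removed (0.22, limma adjusted p = 0.39).

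**Figure D3:**
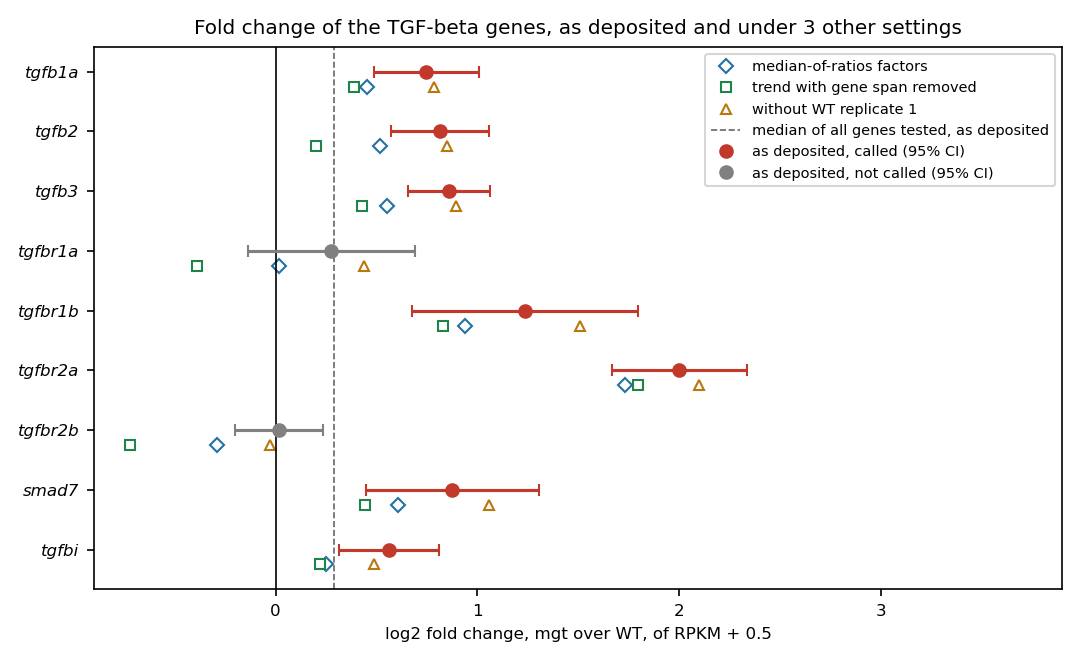
Log2 fold change, *mgt* over WT, of each TGF-beta gene on the log2(RPKM + 0.5) scale; filled circles with 95% intervals are the values as deposited (red, called; grey, not called), open symbols are 3 other settings, and the dashed line is the median of all genes tested (0.29). *tgfbr2a* is farthest to the right under all 4 settings, and *tgfbr1a* and *tgfbr2b* are left of 0 with the gene span trend removed.

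Since the median of all genes lay above 0, the log2 fold changes were also read against it. The difference from that median was 1.71 for *tgfbr2a*, 0.95 for *tgfbr1b*, 0.59 for *smad7*, 0.57 for *tgfb3*, 0.53 for *tgfb2*, 0.46 for *tgfb1a* and 0.27 for *tgfbi*. It was -0.01 for *tgfbr1a* and -0.27 for *tgfbr2b*. With median-of-ratios factors, quantile normalization, scaling to the same sum or removal of the gene span trend, 7 of the 9 genes lay above the median of all genes in each case.

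The order of levels per length was not the same in both genotypes. In *mgt* it ran from *tgfbi* through *tgfb3*, *tgfbr2b*, *tgfbr1b*, *tgfb2*, *tgfb1a*, *tgfbr2a* and *smad7* to *tgfbr1a*, and no neighbours overlapped across libraries. In WT it ran from *tgfbi* through *tgfbr2b*, *tgfb3*, *tgfbr1b*, *tgfb2*, *tgfb1a*, *smad7* and *tgfbr1a* to *tgfbr2a*, where *tgfbr1b* overlapped *tgfb2*, and *smad7* overlapped *tgfbr1a*. *tgfbr2a* was the least abundant of the 9 in WT, whereas in *mgt*, at 7.47 ± 0.045 RPKM, it stood above *smad7* at 4.89 ± 0.17 RPKM and *tgfbr1a* at 2.90 ± 0.23 RPKM. *tgfb3* was above *tgfbr2b* in *mgt* and below it in WT.

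WT replicate 1 divided the genes further. On the log2 scale it exceeded the mean of WT replicates 2 and 3 by 0.83 in *tgfbr1b*, 0.54 in *smad7* and 0.48 in *tgfbr1a*. In the ligands it exceeded them by 0.10 to 0.12, in *tgfbr2a* by 0.30, and in *tgfbr2b* and *tgfbi* it lay below them by 0.14 and 0.23. WT replicate 1 also stood higher over genes at large. Its median-of-ratios factor was 1.097, against 0.8483 and 0.8063 in WT replicates 2 and 3 and 1.13 to 1.132 in *mgt*. An excess of WT replicate 1 is thus not particular to the TGF-beta genes. The mean of *mgt* was above WT replicate 1 in 8 of the 9 genes, by 1.81 in *tgfbr2a*, 0.79 in *tgfb3*, 0.75 in *tgfb2*, 0.69 in *tgfbr1b* and 0.52 in *smad7*, and below it by 0.04 in *tgfbr1a*. The share of all genes with *mgt* above WT replicate 1 was not counted. The summed neuron markers of WT replicate 1, 380.3 RPKM, were also nearer to *mgt* than those of the other WT replicates, and their part in the values of *tgfbr1b* and *smad7* was not tested.

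Each gene was then set beside the genes with the most similar pattern over the 6 libraries. The measure was the root mean square difference of centred log2 values. The search covered the 9313 genes whose mean RPKM was 5 or more, without genes lacking a symbol or with a colon or full stop in it. The closest to *tgfb3* was *cnmd*, which encodes the cartilage and tendon glycoprotein chondromodulin, at 0.015, followed by *tgfb2* at 0.038 and *calca* at 0.040. *tgfb2* was closest to *plpp3* (0.033), *amotl2b* (0.037) and *cnmd* (0.038). *tgfb1a* was closest to *pdgfra*, a growth factor receptor of mesenchymal cells, at 0.027, with *amotl2b* and *tspan9b* both at 0.031. The ligand genes were thus nearer to each other (0.038 to 0.067) than to any other of the 9 genes. The nearest to *tgfbr1b* were *mllt10* and *chd3*, which encode chromatin proteins (0.029 each), and the splicing regulator gene *rbfox2* (0.036), and those to *smad7* were the transcription factor gene *tcf3a* (0.033), *slc25a38b* (0.034) and *dqx1* (0.034). Among the genes searched, *tgfbr2a* had none as close, the nearest being the stress-induced mTOR inhibitor gene *ddit4* at 0.061, *sncga* at 0.062 and *cbx7a* at 0.075. *tgfbr2b* was closest to *pycr1b* (0.016), *cpt1ab* (0.028) and *snx3* (0.028), *tgfbr1a* to *tmem30ab* (0.033), *sppl2* (0.036) and *znf770* (0.037), and *tgfbi* to *zcchc24* (0.026), *calub* (0.036) and *emp2* (0.036). With 6 libraries in a pair of groups, these distances describe the libraries and nothing beyond them.

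The wider pathway was examined by role. The list of genes that hold, release or activate the ligand also held the further ligand genes *tgfb1b* and *tgfb5*. Of its 18 genes tested, 14 were higher in *mgt* and none was lower. *itgav*, *itgb6*, *bmp1b* and *mmp2* were not called (median log2 fold change of the list 0.50, beside 0.29 over all genes). Over all genes, 31.8% were higher and 15.6% lower. The gelatinase gene *mmp9* had 15.89, 14.19 and 12.49 RPKM in *mgt*, against 1.80, 1.75 and 1.49 RPKM in WT, with no overlap (log2 fold change 2.75, limma adjusted p = 0.000113). *thbs1b*, for a thrombospondin, a family that can activate latent TGF-beta, averaged 62.3 ± 2.13 RPKM in *mgt* and 24.5 ± 4.73 RPKM in WT (log2 fold change 1.35, limma adjusted p = 0.00161). The ligand genes *tgfb1b* (log2 fold change 0.46) and *tgfb5* (0.49), counted among the 14, were both called higher as deposited. Neither was called with median-of-ratios factors or with the gene span trend removed. The macrophage and neutrophil markers, which summed to 27.25 to 30.93 RPKM in *mgt* and 16.62 to 21.31 RPKM in WT, moved in the same direction as *mmp9*, and their part in it was not tested. With median-of-ratios factors 8 of the 18 were called higher and none lower (all genes, 23.4% and 24.6%), and with the gene span trend removed 5 were called higher and 2 lower (all genes, 18.6% and 25.5%).

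Among co-receptors, decoys and other receptor or receptor-associated genes, 3 of 5 were higher in *mgt*, beside 31.8% of all genes (median log2 fold change 0.59). They were *tgfbr3*, *acvrl1* and *tgfbrap1*, for a receptor-associated protein (0.59, limma adjusted p = 0.0452). The decoy receptor genes *bambia* and *bambib* were not called. *tgfbr3*, which encodes betaglycan, a co-receptor that presents TGF-beta2 to the type II receptor, averaged 6.66 ± 0.14 RPKM in *mgt* and 2.85 ± 0.38 RPKM in WT (log2 fold change 1.104, limma adjusted p = 0.00186). The endothelial type I receptor gene *acvrl1* averaged 12.2 ± 0.74 RPKM in *mgt* and 7.57 ± 0.71 RPKM in WT (log2 fold change 0.66, limma adjusted p = 0.00653). All 6 endothelial markers were higher as well, 4 with median-of-ratios factors and 1 with the gene span trend removed, and their part in the value of *acvrl1* was not tested. With median-of-ratios factors *tgfbr3* alone of the 5 was called higher, and with the gene span trend removed none was (all genes, 23.4% and 18.6%).

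The list of relay genes held genes of the Smad2 and Smad3 route and also *map3k7*, *tab1* and *tab2*, which belong to a branch beside the Smads. Of its 11 genes tested, 6 were higher and none was lower (median log2 fold change 0.63), beside 31.8% and 15.6% of all genes. *tab2* (0.72, limma adjusted p = 0.00599) was among the 6. *smad2*, a receptor substrate, had 10.50, 10.78 and 10.97 RPKM in *mgt*, against 6.52, 4.55 and 3.50 RPKM in WT, without overlap (log2 fold change 1.11, limma adjusted p = 0.00826, and 0.46 with the gene span trend removed). The other receptor substrates *smad3a* (0.62, limma adjusted p = 0.0778) and *smad3b* (0.47, limma adjusted p = 0.0897) were not called, nor were *zfyve9a*, *map3k7* and *tab1*. *zfyve9b*, a counterpart of the mammalian gene for SARA, which brings Smads to the receptor, averaged 2.41 ± 0.16 RPKM in *mgt* and 0.94 ± 0.61 RPKM in WT (log2 fold change 1.095, limma adjusted p = 0.0228). WT replicate 1 of *zfyve9b*, at 1.63 RPKM, stood above the others at 0.47 and 0.72 RPKM, and the log2 fold change was 1.42 without it and 0.70 with the gene span trend removed. Without WT replicate 1, 10 of the 11 relay genes were called higher (all genes, 52.0%), *smad3a* and *smad3b* among them. With median-of-ratios factors 5 were called higher (all genes, 23.4%), as were 5 with the gene span trend removed (all genes, 18.6%).

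Of 15 feedback genes and other negative regulators of Smad signalling, 14 were higher in *mgt*, beside 31.8% of all genes, and *smad6b* was not called (median log2 fold change 0.96). *skila*, for a co-repressor of Smads, had 11.65, 11.91 and 11.24 RPKM in *mgt*, against 6.26, 2.97 and 2.99 RPKM in WT, where replicate 1 was again the highest (log2 fold change 1.48, limma adjusted p = 0.00756, and 0.95 with the gene span trend removed). *pmepa1*, a TGF-beta target whose product sequesters Smads in mammals, had 5.42, 6.21 and 5.95 RPKM in *mgt*, against 1.51, 1.84 and 2.35 RPKM in WT (log2 fold change 1.42, limma adjusted p = 0.00167). In *pmepa1* WT replicate 1 was the lowest WT library, unlike in *skila* and *smad7*. With median-of-ratios factors 13 of the 15 were called higher (all genes, 23.4%), and 8 were with the gene span trend removed (all genes, 18.6%).

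Genes known to respond to TGF-beta went both ways. Of 29 tested, 22 were higher and 3 were lower in *mgt*, beside 31.8% and 15.6% of all genes, with a median log2 fold change of 0.89. The AP-1 gene *junba* had 29.89, 27.90 and 31.90 RPKM in *mgt*, against 7.95, 3.50 and 3.10 RPKM in WT (log2 fold change 2.62, limma adjusted p = 0.00206). The fibronectin gene *fn1b* averaged 199.5 ± 28.7 RPKM in *mgt* and 36.6 ± 13.8 RPKM in WT (log2 fold change 2.50, limma adjusted p = 0.00206). Chosen after its values were seen, the textbook target *ccn2a*, for connective tissue growth factor, had a log2 fold change of 2.13, with no overlap between genotypes. *ccn2a* had 110.38, 120.60 and 122.69 RPKM in *mgt*, against 27.67, 27.37 and 24.71 RPKM in WT. In *ccn2a* WT replicate 1 did not stand apart. The 3 lower genes were *postna*, for the matrix protein periostin, and the smooth muscle genes *tagln* and *acta2*. *postna* averaged 18.9 ± 1.57 RPKM in *mgt* and 34.3 ± 4.38 RPKM in WT (log2 fold change -0.84, limma adjusted p = 0.00437), *tagln* 57.6 ± 4.61 RPKM in *mgt* and 101.4 ± 19.3 RPKM in WT (-0.80, limma adjusted p = 0.0104), and *acta2* 43.2 ± 1.48 RPKM in *mgt* and 74.4 ± 15.4 RPKM in WT (-0.76, limma adjusted p = 0.0113). In all 3, every *mgt* library lay below every WT library, as in 21.6% of all genes tested. The type I collagen gene *col1a1a* was not called (0.35, limma adjusted p = 0.0522), nor were *twist1a*, *twist1b* and *postnb*. The type I collagen genes *col1a1b* (0.62, limma adjusted p = 0.0285) and *col1a2* (0.59, limma adjusted p = 0.02735) were called higher as deposited. Neither was called with median-of-ratios factors or with the gene span trend removed. With median-of-ratios factors 17 were called higher and 3 lower (all genes, 23.4% and 24.6%), and with the gene span trend removed 16 higher and 3 lower (all genes, 18.6% and 25.5%).

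**Figure D4:**
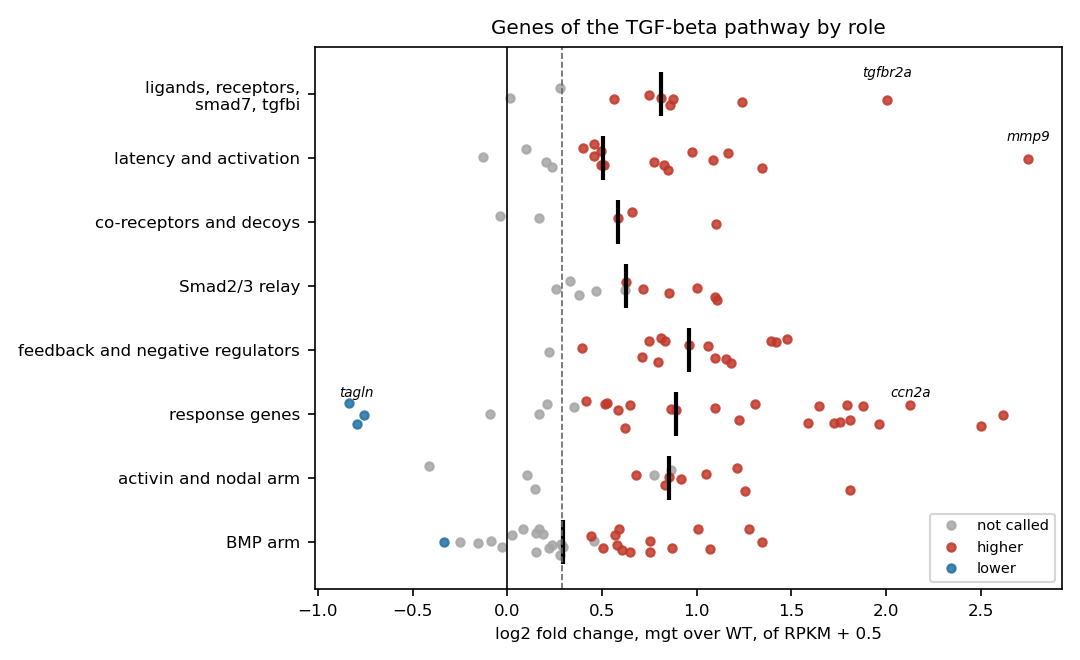
Log2 fold change, *mgt* over WT, of each tested gene of the TGF-beta pathway lists and of the activin and BMP arms; each point is a gene, coloured by its call, black bars are list medians and the dashed line is the median of all genes tested (0.29). As deposited, feedback and negative regulators have the highest median (0.96), the BMP arm lies at the median of all genes (0.29), and *postna*, *tagln* and *acta2* are on the left of the response genes. With the gene span trend removed, the median of feedback and negative regulators was 0.35, below 0.55 for the activin and nodal arm and 0.43 for the response genes.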

How the data were processed

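Total RNA of whole larvae was depleted of ribosomal RNA, and which kit served which pool is not given in the sources used here. Reads were checked with FastQC, trimmed with cutadapt 5.2 (submitters' processing notes), aligned to GRCz11 with STAR and counted with HTSeq by the authors, who deposited RPKM rounded to 2 decimals. The gene length behind RPKM is not stated. It is not the gene span, since 93 of 7526 genes of at least 30000 bases had 0 RPKM in WT replicate 2 or 3 and at least 0.03 RPKM in the other, where 34.5 reads would be due at 0.03 RPKM over the span. The table also holds the authors' deposited means per genotype and a ratio of them. These were used only to test which libraries they cover, and their WT mean equals that of WT replicates 2 and 3 in all 32520 genes, within 0.001 RPKM. The deposited table is named as free of outliers, and which libraries this concerns is not stated there. All 6 libraries were used here. The label of WT replicate 3 numbers its library otherwise than its column does, and the column named in its description was used. The table had 32521 lines, with 1 repeated identifier. Library totals came from single-read steps of genes of at most 160 bases.

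The study's methods name a test on counts. As the table holds RPKM, log2(RPKM + 0.5) of the 20435 genes whose mean RPKM reached 0.5 was tested with limma 3.58.1 in R 4.3.3 (eBayes, trend fitted), and p-values were adjusted by Benjamini-Hochberg over all of these genes. The pseudocount understates the change of low genes. The 4 ratios were compared with two-sided exact permutation tests (scipy 1.17.1). The code was tested on simulated data. The 9 genes, the pathway lists and the tissue markers were chosen with earlier results of these data known. The pathway lists held 142 further genes, of which 132 matched a single row and 122 passed the filter; the others were not analysed here. In each list the text names up to 2 called genes with the highest and up to 2 with the lowest fold change whose groups do not overlap, and genes not called where they are few. Other genes were named after their values were seen. A gene withheld from the text is not reported here by name. Alternatives were pseudocounts of 0.1 and 1, no filter and a filter at 1, scaling to the same sum, median-of-ratios factors, quantile normalization, removal of a lowess trend with gene span (0.3 of the genes per window), eBayes without trend or robust, a replicate block, and leaving out each library.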

Additional observations from a re-analysis of the deposited data

How the results depend on the processing

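*tgfb1a*, *tgfb3*, *tgfbr1b* and *tgfbr2a* kept their calls under all 17 alternatives of the limma fit, the highest adjusted p of any being 0.0431. The call of *tgfb2* was lost with the gene span trend removed (0.20, limma adjusted p = 0.32). Under a threshold of 2.38-fold in either direction the count of genes called changed was 2174, against 9688, and that of TGF-beta genes was 1, *tgfbr2a*. Leaving out 1 library gave 4074 (without *mgt* replicate 2) to 14350 genes (without WT replicate 1), and 6 to 8 TGF-beta genes. With the gene span trend removed, *plod3* was no longer called (log2 fold change 0.19, limma adjusted p = 0.24). The sign of *tgfbr1a* turned with quantile normalization (-0.11) and the gene span trend removed (-0.39); that of *tgfbr2b* turned with these (-0.13 and -0.72), with median-of-ratios factors (-0.29) and over the leave-one-out fits (-0.03 to 0.057). Without a pseudocount the difference in the log2 ratio of *tgfbr2a* to *tgfbr2b* was 2.32. Called genes numbered 4775 higher and 5036 lower with median-of-ratios factors, 4672 and 5338 with quantile normalization, 3795 and 5211 with the gene span trend removed, and 8816 and 1907 with every library scaled to the same sum, against 6494 and 3194 as deposited. Same-numbered replicates of both genotypes did not deviate together (r across genes -0.03, 0.03 and 0.03), and pairs of unlike number gave -0.119 to 0.084. With so few pools, these values cannot decide whether the numbers pair pools. With the replicate number as a block, 5588 genes were called higher and 2533 lower, and all 7 TGF-beta genes were called again. The causes of these changes were not tested. Counting error is largest for the least abundant genes, *tgfbr2a* and *tgfbr1a* in WT, and *tgfbr1b* shares its span with *reck*. The small number of pools limits all tests.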

Other observations

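The sister arms of the TGF-beta superfamily were measured in the same libraries. Activins and nodals signal through their own receptors to the same Smad2 and Smad3, whereas BMPs signal to Smad1, Smad5 and Smad9. In the activin and nodal arm 8 of 13 genes tested were higher in *mgt* than in WT and none was lower, beside 31.8% and 15.6% of all genes, with a median log2 fold change of 0.86. The activin type II receptor gene *acvr2ba* had 4.12, 5.29 and 4.69 RPKM in *mgt*, against 1.21, 0.99 and 0.76 RPKM in WT (log2 fold change 1.81, limma with Benjamini-Hochberg adjusted p = 0.00075). The activin subunit gene *inhbaa* averaged 3.74 ± 0.38 RPKM in *mgt* and 1.29 ± 0.35 RPKM in WT (log2 fold change 1.26, limma adjusted p = 0.00337). Of the follistatin genes, which encode activin traps, *fsta* (1.21) and *fstb* (0.68) were called higher, *fstb* not with median-of-ratios factors. The myostatin gene *mstnb* was not called as deposited (-0.42, limma adjusted p = 0.0881). It was called lower with median-of-ratios factors (-0.64, limma adjusted p = 0.00896) and with the gene span trend removed (-0.55, limma adjusted p = 0.0153). The nodal genes *ndr1*, *ndr2* and *spaw*, active in the early embryo, were below the filter.

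In the BMP arm 14 of 31 genes tested were higher, 1 was lower and 16 were not called, beside 31.8% higher and 15.6% lower among all genes, and the median log2 fold change of 0.29 was that of all genes. The type II receptor genes *bmpr2a* and *bmpr2b* were the highest, at log2 fold changes of 1.35 (limma adjusted p = 0.0270) and 1.28 (limma adjusted p = 0.00839). *bmpr2a* had 11.11, 10.65 and 11.66 RPKM in *mgt*, against 8.14, 2.83 and 2.84 RPKM in WT, so that WT replicate 1 stood far above the other WT replicates. With the gene span trend removed the log2 fold changes were 0.70 for *bmpr2a* and 0.43 for *bmpr2b*. The BMP target *id1* averaged 221 ± 9.84 RPKM in *mgt* and 280 ± 27.2 RPKM in WT and was the lower gene (log2 fold change -0.34, limma adjusted p = 0.0364). The BMP targets *id2a*, *id2b*, *id3* and *id4* were not called. With median-of-ratios factors 8 genes of the BMP arm were called higher and 2 lower, and with the gene span trend removed 6 higher and 3 lower. In the activin and nodal arm 7 were called higher and 1 lower under either setting, *mstnb* being the lower one. Over all genes these shares were 23.4% and 24.6% with median-of-ratios factors, and 18.6% and 25.5% with the gene span trend removed. Without WT replicate 1, 10 of 13 genes of the activin and nodal arm were called higher and none lower. In the BMP arm 17 of 31 were then called higher and 1 lower (all genes, 52.0% and 18.2%). The difference between the arms was not tested.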
